A study of Mus musculus with 6 samples.

Results

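MLO-Y4 is a mouse line of osteocyte-like cells, osteocytes being the resident cells of mature bone matrix. Described here are 5 genes of the interleukin-1 (IL-1) and interleukin-33 (IL-33) system, Il33, Il1rn, Il1r1, Il1rap and Il1rl1, chosen by symbol from a table of 2065 genes. Wild-type cells of the line were kept for 24 h at 20% O2 (3 libraries labelled normoxia, replicates 2, 3 and 4) or at 2% O2 in a hypoxic chamber (3 libraries labelled hypoxia, replicates 1, 2 and 4), and messenger RNA was sequenced. The labels give the same serum-containing medium for both groups and state no drug or genetic change. The descriptions of some libraries state a longer time than their titles. The labels do not state separate cultures for the replicates, and p-values here reflect the spread among these libraries alone, possibly a technical spread.

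IL-1 and IL-33 are inflammatory cytokines of a single family. Each binds its own receptor, IL-1 the product of Il1r1 and IL-33 the product of Il1rl1 (known as ST2), and both receptors then recruit the same accessory chain, the product of Il1rap, to signal through the adaptor MyD88 to NF-kB and MAP kinases. Il1rn encodes the IL-1 receptor antagonist, a protein that occupies the IL-1 receptor without recruiting the accessory chain. In bone, IL-1 is known as a stimulus of osteoclast formation and resorption. IL-33 is held in the nucleus of stromal and epithelial cells and released on damage, and Il1rl1 also gives rise to a soluble decoy receptor, which gene-level values cannot tell from the membrane receptor.

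The authors had selected the 2065 genes for change between these same libraries, and every log2 fold change in their deposited table is 1.00 or more in size. A difference in a member is therefore a description of genes chosen for differing and not independent evidence. The entries are log2(value + 1) of a linear value whose unit is not named, so depth is unknown and levels are not compared between genes. Limma called 2056 of 2056 tested genes (100%) at a Benjamini-Hochberg adjusted p under 0.05, and in the libraries labelled hypoxia 1633 (79.4%) of them were higher and 423 (20.6%) were lower. Of 25 targets of HIF, the hypoxia-inducible transcription factor stabilized at low oxygen, 17 were in the table, 16 of them lower and Pfkfb4 higher in the libraries labelled hypoxia. That direction goes against the labels, so each direction below is given by label only. The median difference of all tested genes was 1.15 on the log2(value + 1) scale. Trimmed-mean (TMM) scaling, which assumes that most genes of a table are unchanged, moved it to 0.0036. Its factors came from these selected genes alone, which do not meet that assumption, so that small median follows from the method. Quantile normalization moved the median to 0.36.

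All 5 members were higher in the libraries labelled hypoxia, and in each the lowest of these libraries was above the highest labelled normoxia, as in 79.4% of the tested genes. Il1r1, the IL-1 receptor, had the largest difference of the 5 as deposited, at 2.11 ± 0.14 (SE, n = 3 and 3), and 81 of the 2056 tested genes (3.94%) had a larger one. The other members were between 1.13 and 1.28, close to the median of all tested genes. With TMM scaling Il1r1 and Il1rn were still called higher, and Il33 and Il1rap were close to 0. Il1rl1 turned to the other side of 0 without passing the test. As TMM puts the median of these selected genes near 0, such a call compares a member with the rest of the table. Il1rn passed the filter on low values only through the libraries labelled hypoxia, as described below.

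The windows around annotated start sites that hold a searched motif are printed here, so that the letters can be read beside the values that follow. They come from RefSeq on GRCm38.p6, an older build than the GRCm39 the submitters name, and each runs from 250 bases before to 50 bases after a start site, on the plus strand. Capitals mark matches. The motifs were the consensus of NF-kB, the transcription factor downstream of both receptors, TGANTCA, the site of the AP-1 factors, and ACGTG, the core bound by HIF, each on both strands.
Il1r1 upstream start, chr1:40224830-40225129: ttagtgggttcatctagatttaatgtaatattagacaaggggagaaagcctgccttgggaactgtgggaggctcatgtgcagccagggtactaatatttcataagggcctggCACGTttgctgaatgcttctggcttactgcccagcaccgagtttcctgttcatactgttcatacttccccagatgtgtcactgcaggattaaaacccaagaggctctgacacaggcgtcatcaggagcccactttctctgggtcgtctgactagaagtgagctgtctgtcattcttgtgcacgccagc
Il1r1 downstream start, chr1:40266336-40266635: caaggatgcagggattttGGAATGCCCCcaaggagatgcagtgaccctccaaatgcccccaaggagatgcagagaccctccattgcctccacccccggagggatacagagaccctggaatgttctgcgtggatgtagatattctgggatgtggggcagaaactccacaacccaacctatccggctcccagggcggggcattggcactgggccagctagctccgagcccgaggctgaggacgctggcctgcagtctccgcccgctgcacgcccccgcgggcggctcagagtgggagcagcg
Il1rap, chr16:26581455-26581754: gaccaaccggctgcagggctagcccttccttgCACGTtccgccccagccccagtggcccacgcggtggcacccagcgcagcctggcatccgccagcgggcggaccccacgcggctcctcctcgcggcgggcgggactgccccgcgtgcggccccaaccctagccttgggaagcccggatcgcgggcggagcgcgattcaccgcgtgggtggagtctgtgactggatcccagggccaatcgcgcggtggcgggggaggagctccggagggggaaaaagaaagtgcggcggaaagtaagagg
Il1rn upstream start, chr2:24336610-24336909: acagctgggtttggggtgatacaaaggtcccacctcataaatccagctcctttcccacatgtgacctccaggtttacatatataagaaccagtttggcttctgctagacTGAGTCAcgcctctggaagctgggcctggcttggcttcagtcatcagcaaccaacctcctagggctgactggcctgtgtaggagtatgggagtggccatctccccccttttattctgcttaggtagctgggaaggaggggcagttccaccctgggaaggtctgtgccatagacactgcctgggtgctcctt
The window of the downstream Il1r1 start holds an NF-kB match (beginning 232 bases before the start), that of the upstream start an ACGTG match in reverse, and that of Il1rap another. The window of the upstream Il1rn start holds TGAGTCA, 141 bases before the start. The 5 members have 10 windows in all, 2 of which (Il1rn) overlap each other. NF-kB matched 1 of them, TGANTCA 1 and ACGTG 2, where 8.46%, 7.81% and 19.6% of 32841 windows of the same length held these motifs. The windows of Il33 and Il1rl1, with 2 annotated starts each, held none of these 3 searched motifs. Windows without an ACGTG match can still hold GCGTG. Gene-level entries do not say which start was used.

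Il33 (ENSMUSG00000024810, chromosome 19) encodes the receptor-activating ligand among the 2 listed ligands and binding proteins. Its log2(value + 1) was 4.63, 4.31 and 4.19 in normoxia replicates 2, 3 and 4, and 5.58, 5.74 and 5.65 in hypoxia replicates 1, 2 and 4. The groups were separated by 0.95 at their nearest libraries. Il33 differed by 1.28 ± 0.12 (SE; limma, Benjamini-Hochberg adjusted p = 2.46e-06), from 4.38 ± 0.23 (SD, n = 3) under the normoxia label to 5.66 ± 0.08 (SD, n = 3) under the hypoxia label. As linear values the means were 20.0 and 49.6, a ratio of 2.48. TMM scaling ended this call, with a difference of 0.022 ± 0.084 (limma, adjusted p = 0.842). With quantile normalization the difference was 0.47 ± 0.09 (limma, adjusted p = 0.0015).

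Il1rn (ENSMUSG00000026981, chromosome 2), the receptor antagonist, was measured at low values. Its log2(value + 1) was 0.33, 0.12 and 0.43 in normoxia replicates 2, 3 and 4, and 1.55, 1.53 and 1.27 in hypoxia replicates 1, 2 and 4. The linear values behind these were 0.254, 0.083 and 0.35 against 1.93, 1.89 and 1.41, with all 3 libraries labelled normoxia below 1. Il1rn therefore passed the filter on low values, a linear value of 1 or more in 3 or more libraries, only through the libraries labelled hypoxia, and it could not have passed without differing. The difference was 1.16 ± 0.12 (limma, adjusted p = 5.17e-06), between 0.29 ± 0.16 (SD, n = 3) and 1.45 ± 0.16 (SD, n = 3).

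The size of the Il1rn difference depends on the constant added before the logarithm more than that of any other member. With 0.1 in place of 1 it was 2.57 ± 0.33, and with 5 it was 0.37 ± 0.04, both called by limma (adjusted p = 3.3e-05 and 1.03e-05). As a ratio of linear means, Il1rn had 7.62, the largest of the 5 members, where Il1r1 had 4.95. TMM scaling left Il1rn higher, by 0.64 ± 0.13 (limma, adjusted p = 0.00454), and quantile normalization by 0.85 ± 0.14.

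Il1r1 (ENSMUSG00000026072, chromosome 1), the signalling receptor for IL-1, was at 2.81, 2.43 and 2.23 in normoxia replicates 2, 3 and 4. In hypoxia replicates 1, 2 and 4 it was at 4.62, 4.61 and 4.57. The libraries labelled hypoxia lay within a narrow band (4.60 ± 0.02, SD, n = 3), those labelled normoxia were more spread (2.49 ± 0.30, SD, n = 3), and a gap of 1.76 separated the nearest libraries. The linear means were 4.69 and 23.2. Il1r1 was called by limma (adjusted p = 4.05e-07), and still with TMM scaling (0.94 ± 0.12, adjusted p = 0.000213) and with quantile normalization (1.24 ± 0.10, adjusted p = 1.6e-05). With TMM scaling 99 of the 2056 tested genes had a larger difference.

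Il1rl1 (ENSMUSG00000026069, chromosome 1) encodes ST2, the receptor for IL-33. It was at 7.35, 7.31 and 7.23 in normoxia replicates 2, 3 and 4, and at 8.33, 8.42 and 8.55 in hypoxia replicates 1, 2 and 4. The gap between the nearest libraries was 0.98, against SDs of 0.06 and 0.11. Il1rl1 differed by 1.13 ± 0.08 (limma, adjusted p = 5.91e-07), and 1097 of the 2056 tested genes (53.4%) had a larger difference. The linear means were 156.4 and 344.9, a ratio of 2.21. TMM scaling turned the direction, at -0.16 ± 0.08 (limma, adjusted p = 0.14), and quantile normalization kept it (0.75 ± 0.09, adjusted p = 0.00011).

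Il1rap (ENSMUSG00000022514, chromosome 16), the accessory chain that both receptors share, was at 3.89, 3.69 and 3.63 in normoxia replicates 2, 3 and 4. It was at 4.94, 5.00 and 4.99 in hypoxia replicates 1, 2 and 4. The groups were 1.05 apart at the nearest libraries. The difference was 1.24 ± 0.09 (limma, adjusted p = 7.64e-07), between 3.74 ± 0.14 (SD, n = 3) and 4.97 ± 0.03 (SD, n = 3), and the linear means of 12.4 and 30.4 had a ratio of 2.46. TMM scaling ended the call (0.003 ± 0.062, adjusted p = 0.972), and quantile normalization left 0.38 ± 0.06 (adjusted p = 0.000582).

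**Figure D1:**
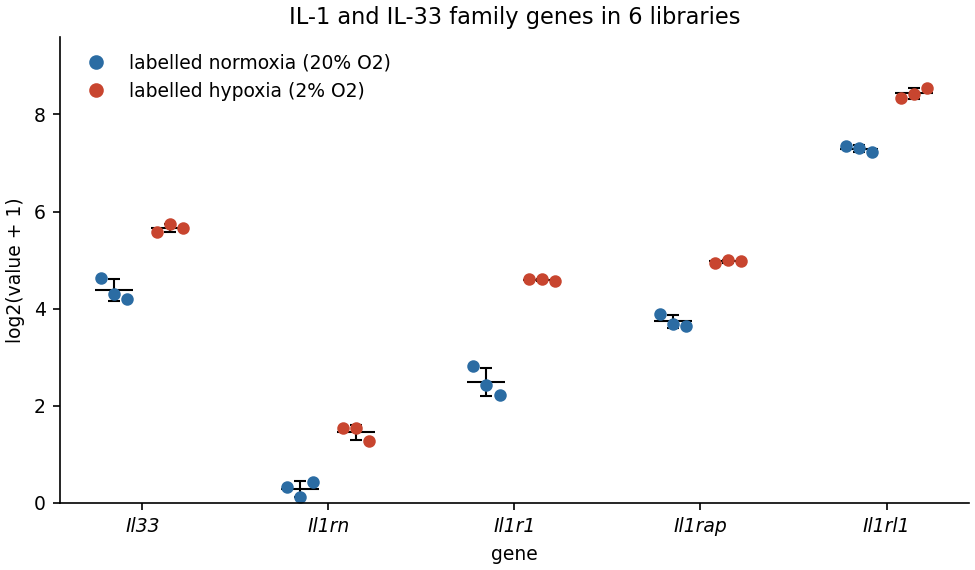
Log2(value + 1) of the 5 genes (horizontal axis) in each of the 6 libraries, blue for the label normoxia and red for the label hypoxia, with the mean and SD of 3 libraries in black. In every gene the red points lie above the blue ones, with the widest gap, 1.76, in Il1r1, and levels of different genes are not comparable on this axis.

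**Figure D2:**
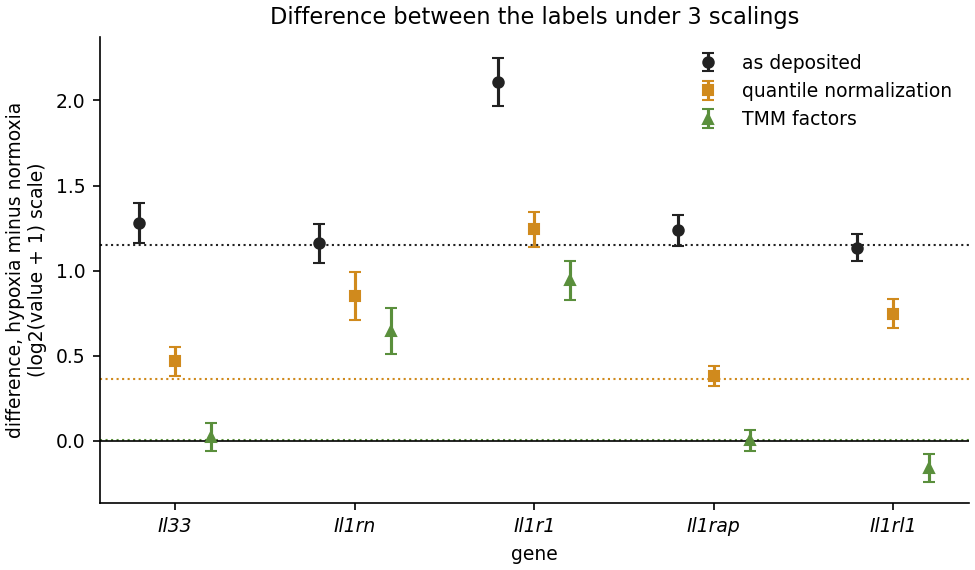
Difference of each gene, hypoxia minus normoxia on the log2(value + 1) scale with its SE, as deposited (black), with quantile normalization (orange) and with TMM scaling (green); dotted lines give the median of all tested genes under each, at 1.15, 0.36 and 0.0036. Il33, Il1rap and Il1rl1 lie within 0.2 of the dotted line as deposited and with TMM scaling, while Il1r1 lies 0.88 or more above it under all 3 and Il1rn is above it by 0.008, 0.49 and 0.64.

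Within the libraries labelled normoxia, replicate 2 was the highest for 4 of the 5 members, all but Il1rn, whose highest was replicate 4. Of the 1633 tested genes that were higher in the libraries labelled hypoxia, 1183 (72.4%) also had normoxia replicate 2 as their highest library of that label. Without that replicate the differences of Il33 and Il1r1 were 1.41 ± 0.07 and 2.27 ± 0.08. Those of Il1rn, Il1rap and Il1rl1 were 1.18 ± 0.13, 1.31 ± 0.06 and 1.16 ± 0.08. The median of all tested genes moved from 1.15 to 1.21. The SD was larger under the normoxia label in 4 members, all but Il1rl1, as in 79.7% of those 1633 genes.

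To compare how far members differed relative to each other, the log2 ratio of each pair was taken within every library, which removes a scaling factor common to the genes of a library apart from the effect of the added 1. There are 10 pairs, and 3 libraries against 3 cannot give an exact p below 0.10. With the added constant of 1, Il1r1 was higher relative to each of the other 4 members under the hypoxia label, with no overlap between groups. For Il1rn this depended on the constant, as given below. Il1r1 had the largest difference of the members in these same libraries, so its separate pairs largely restate that difference. The share of separate pairs over all tested genes was not computed, so the counts of separate pairs have no background here. The log2 ratio of the IL-1 receptor to the accessory chain Il1rap was -1.08, -1.26 and -1.41 in normoxia replicates 2, 3 and 4, and -0.32, -0.39 and -0.41 in hypoxia replicates 1, 2 and 4. That ratio was 1.83-fold higher under the hypoxia label (0.87 ± 0.10 on the log2 scale; two-sided exact permutation p = 0.10, 0.25 adjusted over the 10 pairs).

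The ratio of Il1r1 to Il1rl1, the 2 ligand-binding receptors, was -4.54, -4.88 and -5.00 under the normoxia label and -3.72, -3.81 and -3.97 under the hypoxia label. It differed by 0.98 ± 0.16 (exact permutation p = 0.10, adjusted 0.25). The ratio of Il1r1 to Il33 differed by 0.83 ± 0.06, and that of Il1r1 to its antagonist Il1rn by 0.95 ± 0.22 (each exact permutation p = 0.10, adjusted 0.25). Taken from the TMM-scaled differences, the same contrasts of Il1r1 with Il1rap, Il1rl1, Il33 and Il1rn were 0.94, 1.10, 0.92 and 0.30, and from the quantile-normalized ones 0.86, 0.50, 0.78 and 0.39. The contrast with Il1rn changed sign when 0.1 was added in place of 1 (-0.26), so which of the receptor and its antagonist differed more was not settled. With a constant of 5 the contrasts with Il33, Il1rap and Il1rl1 were smaller, at 0.41, 0.52 and 0.43.

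In the 6 pairs without Il1r1 the groups overlapped as deposited. The ratio of the ligand Il33 to its receptor Il1rl1 was -2.72, -3.00 and -3.04 under the normoxia label and -2.75, -2.68 and -2.89 under the hypoxia label, a difference of 0.15 ± 0.12 (exact permutation p = 0.30, adjusted 0.50). The ratio of Il33 to Il1rap differed by 0.04 ± 0.06 (exact permutation p = 0.40), and that of Il1rap to Il1rl1 by 0.10 ± 0.07 (exact permutation p = 0.20). Quantile normalization turned the contrasts of Il33 and of Il1rap with Il1rl1 (-0.28 and -0.37), and both scalings turned those of Il33 and of Il1rap with Il1rn (TMM -0.62 and -0.64, quantile -0.38 and -0.47). A p that misses the threshold in 3 libraries a group does not show that these genes moved alike.

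**Figure D3:**
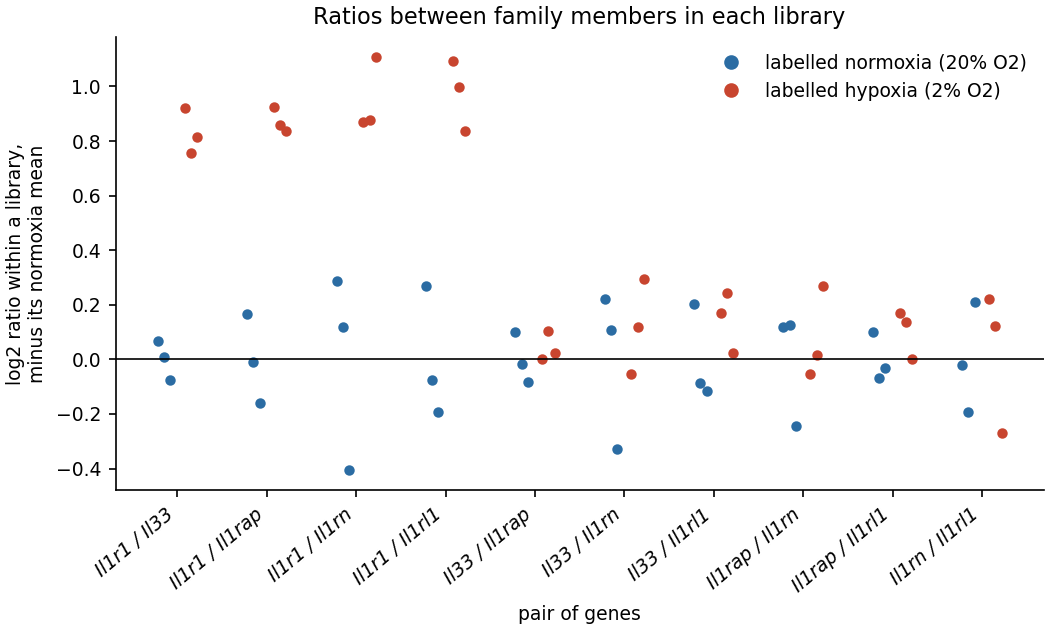
Log2 ratio of each of the 10 pairs of genes (horizontal axis) within each library, minus the mean of that ratio in the libraries labelled normoxia (vertical axis, log2), blue for the label normoxia and red for hypoxia. The 4 pairs with Il1r1, the member with the largest difference, show separate groups, with mean differences from 0.83 to 0.98, and the other 6 overlap. The share of separate pairs over all tested genes was not computed.

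By Pearson correlation of the 6 entries, a measure set mostly by the 2 groups in a table chosen for that difference, the genes most like Il33 were C1qtnf1, Sfpq and Gon4l (r = 0.9998, 0.9996 and 0.9994). Those most like Il1r1 were Mapk14, which encodes the p38 MAP kinase, Prkg2 and Dhrs9 (each r = 0.9998 or 0.9997). Il1rap was most like Tpm3-rs7, a tropomyosin-related gene, Bloc1s1 and Mlh3, and Il1rl1 most like Ilvbl, Parp8 and Trmt5. Il1rn was most like Limch1, Uggt2 and Slc7a3 (r = 0.9976, 0.9968 and 0.9964). Between 1584 and 1617 of the listed genes correlated with each member at r over 0.9, so such values single out few genes.

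Of 11 ligands and binding proteins of the IL-1 family, Il33 and Il1rn were in the table, and of 10 receptors Il1r1, Il1rap and Il1rl1. Genes outside it, such as the agonists Il1a and Il1b, the decoy receptor Il1r2 and the inhibitory receptor Sigirr, were not analysed here. Of 15 genes of the signalling module downstream of the receptors, Myd88 and Irak3 were listed, both higher under the hypoxia label and both still called with TMM scaling. Over all tested genes 79.4% were higher, and 26.4% were called higher with TMM scaling, the shares beside which the counts below stand. Myd88, the adaptor, was at 4.03, 3.86 and 3.67 under the normoxia label and at 5.43, 5.48 and 5.46 under the hypoxia label (1.60 ± 0.10; limma, adjusted p = 3.09e-07). Irak3, a kinase-like inhibitor of the same module, was at 2.96, 2.44 and 2.63 and at 4.33, 4.47 and 4.44 (1.74 ± 0.13). In both genes the groups were apart.

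Of 9 NF-kB subunits and kinases, the subunits Nfkb1 (1.78 ± 0.09) and Relb (1.07 ± 0.07, below 0 with TMM scaling) were listed, both higher. Of 15 inhibitors and feedback regulators, 9 were listed, 8 higher and 1 lower (79.4% higher of all tested genes), with a median difference of 1.42 (1.15 over all tested genes). Of the 8, 6 were still called with TMM scaling (26.4% of all tested genes), and Tnip1 was below 0. Among the 6 are Nfkbid and Nfkbie, which passed the filter on low values only through the libraries labelled hypoxia. Nfkbiz, an atypical inhibitor of the NF-kB family, differed by 2.36 ± 0.09, Socs3, a suppressor of cytokine signalling, by 2.21 ± 0.11, and Zc3h12a, a ribonuclease that degrades cytokine messages, by 3.44 ± 0.19. The lower gene was the MAP kinase phosphatase Dusp1, at 5.70, 5.38 and 5.71 under the normoxia label and 3.61, 3.48 and 3.45 under the hypoxia label. It passed limma's test (-2.08 ± 0.11, adjusted p = 1.27e-07).

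Of 14 genes of the MAP kinase arm, 4 were listed. The kinases Map2k3 (1.92 ± 0.08), Mapk14 (1.22 ± 0.11) and Map2k6 (1.01 ± 0.11) were higher, with Map2k3 still called and Map2k6 below 0 under TMM scaling, and the AP-1 subunit Jun was lower (-1.08 ± 0.11). Of 16 genes of inflammasomes and cytokine processing, 5 were listed, all higher (79.4% of all tested genes), 3 of them still called with TMM scaling (26.4%) and 1 below 0. Nlrp3, an inflammasome sensor, was at 0.12, 0.07 and 0.04 under the normoxia label and 1.91, 1.86 and 2.02 under the hypoxia label. Like Il1rn, Nlrp3 passed the filter only through the libraries labelled hypoxia. Casp4, an inflammatory caspase, differed by 1.81 ± 0.11.

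Of 30 genes known to be induced by IL-1 in stromal cells, 26 were listed, 25 higher (79.4% of all tested genes) and 1 lower under the hypoxia label, with a median difference of 2.48 beside 1.15 over all tested genes. TMM scaling left 24 of the 25 called (26.4% of all tested genes) and 0 below 0. The list was written with results of these data known, and 6 of the 26 passed the filter only through the libraries labelled hypoxia. Csf3, the growth factor of neutrophils and one of those 6, was at 0.53, 0.58 and 0.52 under the normoxia label and at 4.18, 4.15 and 4.005 under the hypoxia label (3.57 ± 0.10; limma, adjusted p = 1.12e-08). The acute-phase genes Hp and Saa3 and the chemokine Ccl2 also differed, by 5.09 ± 0.09, 5.35 ± 0.11 and 4.27 ± 0.10. The lower gene was Ptgs2, which makes prostaglandins, at 7.22, 7.47 and 7.32 under the normoxia label and 6.19, 6.35 and 6.24 under the hypoxia label. These genes also respond to other signals that reach NF-kB, and whether any member of the IL-1 system had a part in their differences was not tested.

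**Figure D4:**
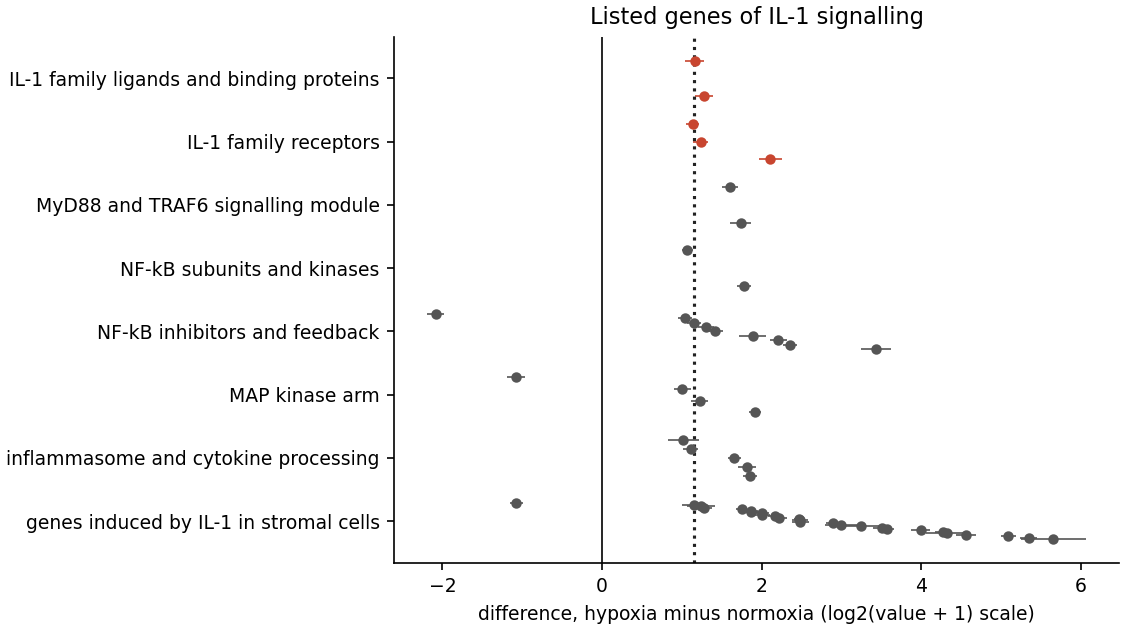
Difference, hypoxia minus normoxia on the log2(value + 1) scale with its SE (horizontal axis), of each listed gene in 8 gene lists (vertical axis), with the members in red and the other genes in grey; the dotted line is the median of all tested genes, 1.15. Genes induced by IL-1 lie mostly to the right of the line, and Dusp1, Jun and Ptgs2 lie below 0.

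Markers of other cell types that carry these receptors were few among the selected genes. Of 12 macrophage and osteoclast markers 2 were listed, with a summed linear value of 22.8 to 26.5 under the normoxia label and 8.34 to 10.6 under the hypoxia label. Most of that sum was Cd68 (linear means 24.4 and 8.22), so it does not describe the other markers. Cd68 was lower (-1.46 ± 0.11) and Mmp9, which is also on the list of genes induced by IL-1, higher (1.16 ± 0.15). Mmp9 was near the floor (linear means 0.094 and 1.48). It passed the filter on low values only through the libraries labelled hypoxia, and it could not have passed without differing. Of 8 markers of mast cells, known for high Il1rl1, 0 were listed, and of 8 lymphoid markers the nuclear receptor gene Rora, also used by other cells, was listed (summed 16.0 to 18.2 against 6.02 to 7.13). Of 6 adipocyte markers only Cebpa was listed, and it was higher (1.20 ± 0.10). Of 6 chondrocyte markers only Sox9 was listed, and it was lower (-2.12 ± 0.11). Of 6 endothelial markers 0 were listed. Of 15 osteoblast and osteocyte markers 6 were listed, among them the early osteocyte marker Pdpn and not Sost, Dmp1 or Phex, which were not analysed here. The 6 had a summed linear value of 10249 to 10675 under the normoxia label and 22379 to 23224 under the hypoxia label. Nearly all of that sum was Spp1 (linear means 10389 and 22324), so it does not describe the other markers. Of the 6, 5 were higher, such as Pdpn (1.76 ± 0.07), and the transcription factor gene Runx2 was lower (-1.04 ± 0.12). With TMM scaling 4 of the 5 were still called, and Spp1 was below 0 (-0.20). All libraries are labelled as the MLO-Y4 line, and no marker is used here to name another cell type in them. The part of these markers in the members' values was not tested, and in bulk RNA fewer cells of a type and less RNA per cell cannot be told apart.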

How the data were processed

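RNA libraries of MLO-Y4 cells were prepared with a stranded messenger RNA kit from DNase-treated RNA, per the labels' protocols. Tools in the submitters' processing notes are DRAGEN and FastQC 0.12.0, with the build GRCm39. The authors deposited log2 entries per library, and raising 2 to each and subtracting 1 gave 3 decimals for 100% of entries (tolerance 1e-06), so they were read as log2(value + 1). The deposited log2 fold change equals the difference of the group means, and the adjusted p-value the authors deposited is at most 0.0926, from a test the sources used here do not name. Depth is unknown, so no counting error can be given for low genes such as Il1rn.

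Genes that reached a linear value of 1 in 3 or more libraries (2056, with 9 left out) were tested with limma 3.58.1 in R 4.3.3, with variance trend and robust estimation, on log2(value + 1) with a pseudocount of 1. P-values are two-sided and Benjamini-Hochberg adjusted over all tested genes, threshold 0.05. The fit was tested on simulated data. TMM factors were computed without weights on linear values. Ratios between members were compared by exact permutation (SciPy 1.17.1), and SEs of ratios come from the 2 groups' SDs. Member differences and counts of calls were recomputed with a pseudocount of 0.1 or 5, without the filter, with a filter of 5, with TMM and with quantile scaling, with limma without trend, with a replicate block, at a threshold of 0.01 and without each library. Ratios were recomputed with both pseudocounts, without each library and, as a choice made after seeing the data, with both scalings.

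The members, gene lists and named genes were chosen with earlier results of these data known. Named were the members, up to 4 genes per list, those of smallest adjusted p (ties by unadjusted p), and the 3 genes most correlated with each member (predicted genes passed over). Tnip1, Nfkbid, Nfkbie, Pfkfb4, Ptgs2 and Runx2 were named after their values were seen, as exceptions to a count. Spp1 was named after its values were seen, for its part in a sum. Values of some single genes are left out here. Another 21 columns with values per library or per mouse were not used. Promoter windows came from RefSeq (GRCm38.p6) by symbol, with all 5 members matched.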

Additional observations from a re-analysis of the deposited data

How the results depend on the processing

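Of 74 member differences under alternatives, 71 kept their direction and their call. As deposited, 2056 of 2056 tested genes were called. Between 1632 and 1633 genes were called higher when any 1 library was left out, and 1389 with quantile normalization. A kept call therefore does not set the members apart from the other selected genes. TMM scaling ended the calls of Il33 (0.022) and Il1rap (0.0030) and turned Il1rl1 (-0.16, limma adjusted p = 0.14), and it left 543 genes called higher where 1633 were as deposited. The TMM factors came from genes selected for change, which do not meet the assumption of TMM. Why most selected genes were higher under the hypoxia label was not tested. Leaving out each library in turn gave differences of 1.19 to 1.41 for Il33, 1.07 to 1.25 for Il1rn, 1.98 to 2.27 for Il1r1, 1.18 to 1.31 for Il1rap and 1.08 to 1.18 for Il1rl1. With a filter of 5 Il1rn was not tested.

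The groups share replicate numbers 2 and 4, and deviations from the group means correlated at 0.08 and -0.07 in these pairs. Pairs of unlike number ranged from -0.08 to 0.14, so these correlations cannot show whether libraries of the same number belong together. With a replicate block the differences were 1.28 for Il33, 1.02 for Il1rn, 2.07 for Il1r1, 1.23 for Il1rap and 1.19 for Il1rl1, with 1 residual degree of freedom, and 1627 genes were called higher and 418 lower. With so few degrees of freedom the calls of that fit rest on variance pooled over genes, so its p-values are not relied on. The kept calls counted above include those of the members in that fit.

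Of 100 ratios between members under alternatives, 83 kept their direction. A pseudocount of 0.1 turned the ratios of Il1rn with Il1r1 (-0.26), Il33 (-1.25) and Il1rap (-1.27), and a pseudocount of 5 those of Il1rl1 with Il1rap (-0.084) and Il1rn (-0.75), where a low value weighs differently by construction. TMM scaling turned Il33 to Il1rn (-0.62) and Il1rap to Il1rn (-0.64), and quantile normalization turned both (-0.38 and -0.47), Il33 to Il1rl1 (-0.28) and Il1rap to Il1rl1 (-0.37), alternatives chosen after seeing the data. Leaving out 1 library turned 3 ratios with overlapping groups, whose ranges were -0.044 to 0.23 for Il33 to Il1rn, -0.045 to 0.14 for Il1rap to Il1rn and -0.074 to 0.17 for Il1rn to Il1rl1. The 4 ratios with Il1r1 ranged from 0.75 to 1.11 without 1 library, and a pseudocount of 5 lowered those to Il33, Il1rap and Il1rl1 to 0.41, 0.52 and 0.43.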
